A study of Homo sapiens with 8 samples.

Results

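The epithelial to mesenchymal transition (EMT) genes described here are 10 genes chosen by name, CDH1, CDH2, VIM, FN1, SNAI1, SNAI2, ZEB1, TWIST1, ACTA2 and TGFB1, and their members are all probes that the platform annotation assigns to one of them. There were 14 such probes among 48797 on the array. The cells were IGROV-1, an established line from a human ovarian carcinoma that was carried in mice as ascites, and their RNA was hybridised to 1-colour Illumina bead arrays. The 4 arrays of the CpG-ODN group came from mice given the oligonucleotide ODN1826 into the peritoneum at 20 µg per mouse, and the 4 arrays of the saline group from mice given saline. All mice had received ascitic IGROV-1 cells into the peritoneum and were treated once ascites was evident, from day 10 or 11, and cells adhering to the peritoneal wall were taken 24 hours after the last dose. CpG-ODN was given either on 3 consecutive days or 1 time, and the labels do not say which array had which schedule. Strain, sex and age of the mice are not given in the sources used here, every group is the same single cell line, and the labels give 4 mice per group without tying an array to a mouse.

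In EMT, epithelial cells lose the junctions that E-cadherin (CDH1) holds together and gain the filament protein vimentin (VIM), N-cadherin (CDH2), fibronectin (FN1) and contractile actin. Transforming growth factor beta (TGFB1) is the best known inducer, and the repressors encoded by SNAI1, SNAI2, ZEB1 and TWIST1 act on E-box sequences of epithelial genes. Ovarian carcinoma cells often carry epithelial and mesenchymal markers side by side, and the peritoneal surface is where they spread.

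ODN1826 is an agonist of mouse Toll-like receptor 9, and its unmethylated CG motifs, in capitals here, are what the receptor recognises.
ODN1826: tccatgaCGttcctgaCGtt

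ACTA2, which encodes smooth muscle alpha-actin, was the member with the clearest change in these data, and the sequence before its transcription starts is shown for that reason. RefSeq (GRCh38.p14) promoter windows matched 6 of the 10 members, and ACTA2 had 2 windows, both on the minus strand of chromosome 10. Of the motifs searched on both strands in the 250 bases before the start, the CArG box, the site of serum response factor, was counted strictly (only A or T in its centre) and with 1 G or C allowed there (CArG-like). The upstream window held 0 sites of any motif. The downstream window held 0 strict CArG boxes, 2 CArG-like sites that began 121 and 71 bases before the start, 1 TATATAA run at 29 bases and 1 E-box (CANNTG) at 57 bases. Capitals mark the CArG-like sites and the TATATAA run, which do not overlap each other or the E-box.
ACTA2 upstream start, chr10:88991338-88991587: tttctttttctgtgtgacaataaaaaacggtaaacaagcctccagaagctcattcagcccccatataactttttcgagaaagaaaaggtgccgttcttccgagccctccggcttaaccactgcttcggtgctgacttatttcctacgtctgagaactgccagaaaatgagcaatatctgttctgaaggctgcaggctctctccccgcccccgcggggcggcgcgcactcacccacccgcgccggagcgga
ACTA2 downstream start, chr10:88952774-88953023: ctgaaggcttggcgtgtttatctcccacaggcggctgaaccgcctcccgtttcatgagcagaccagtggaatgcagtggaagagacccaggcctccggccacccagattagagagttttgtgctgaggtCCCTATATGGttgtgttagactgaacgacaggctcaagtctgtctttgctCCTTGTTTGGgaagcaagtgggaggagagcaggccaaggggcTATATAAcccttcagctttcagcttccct
Of all 35116 windows of this length, 5.96% held a CArG-like site, 1.16% a strict CArG box, 2.42% a TATATAA run and 61.8% an E-box. These matches describe letters, and binding was not measured.

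Mean raw signal lay between 806 and 1073 on the CpG-ODN arrays and between 876 and 1079 on the saline arrays. Between 18425 and 18570 probes were detected (detection p-value under 0.05) on the CpG-ODN arrays and between 18784 and 20114 on the saline arrays, so detection counts did not overlap between the groups, and their part in the results was not tested. Markers of the line were present: PAX8, MUC16, FOLR1, MSLN, EPCAM, KRT7, KRT8, KRT18 and KRT19 were detected on all arrays, whereas WT1 was not detected on any. The summed level of these 10 markers was lower on every CpG-ODN array, at 69592 to 79601, against 81266 to 85874 on the saline arrays, although of the 9 kept genes KRT18 rose and 0 fell by the test. The sum adds linear signals, so bright genes weigh most. KRT19, the brightest of the 10, had a log2 mean of 14.70 with CpG-ODN and 14.98 in saline (limma adjusted p = 0.141). Sums over the epithelial keratins and identity genes described below, which share markers with this list, overlapped. They ran from 100865 to 108377 with CpG-ODN and from 101491 to 113261 in saline. The part of the lower marker sum in the results on the EMT genes was not tested.

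The EMT genes divided into those with a signal and those without. Of the 14 probes, 6 passed the filter (detected on at least 4 of the 8 arrays) and stood for 5 genes, CDH1, VIM, ZEB1, TWIST1 and ACTA2. The other 8 probes, all probes of CDH2, FN1, SNAI1, SNAI2 and TGFB1, were not detected on any CpG-ODN array. On the saline arrays 2 of these 8 were detected, each on 1 array, saline replicate 2.

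**Figure D1:**
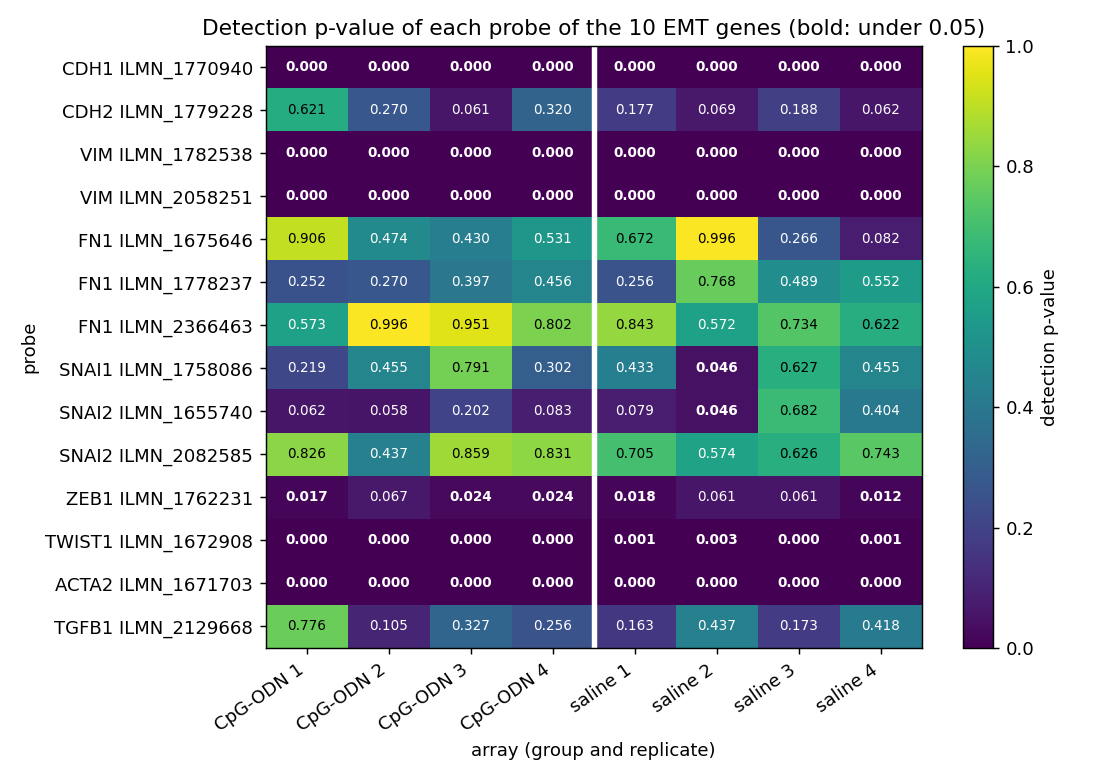
Detection p-values of all 14 probes (rows) on the 4 CpG-ODN arrays (left of the white line) and the 4 saline arrays (right), coloured from 0 to 1 with values under 0.05 in bold. The probes of CDH1, VIM, TWIST1 and ACTA2 are detected on all 8 arrays, ZEB1 on 5, and the remaining 8 probes on none or 1.

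Among epithelial and mesenchymal markers the undetected genes were CDH2 and FN1. The CDH2 probe had signals from 175 to 226 and detection p-values from 0.0606 to 0.621. The 3 FN1 probes, which target different transcript accessions, had signals from 132 to 212 and detection p-values from 0.0817 to 0.996. These signals show no level above background, and no fold change is given for them.

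The 5 kept genes did not move together. ACTA2 fell and TWIST1 rose by the limma fit, while CDH1, both VIM probes and ZEB1 did not pass. That is 2 of 6 kept probes, against 26.6% of all 18184 kept probes called in either direction (13.9% lower, 12.8% higher). In the fit reported here 2322 of all kept probes were higher and 2521 lower, and this split moved with the scaling, to 2920 higher and 2195 lower with medians of the detected probes and to 858 higher and 2775 lower with medians of all probes. The median log2 change was 0.06 over the 6 kept probes and 0.01 over all kept probes. Under those scalings the median over all kept probes moved to 0.10 and -0.10.

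ACTA2 marks myofibroblasts and smooth muscle and is induced in many cells by TGF-beta. Its signal was 923, 1030.4, 1431 and 942 on CpG-ODN replicates 1 to 4, against 2563, 2554, 2073 and 2491 on saline replicates 1 to 4. Every CpG-ODN array was below every saline array, a separation in this direction that 14.9% of all kept probes showed after normalization, and CpG-ODN replicate 3 was the highest of its group. The mean signal was 1082 ± 237 with CpG-ODN and 2420.2 ± 234 in saline (SD, n = 4 each), and the exact permutation test on the raw signals gave a two-sided p of 0.0286, the smallest that 4 against 4 arrays allow. After normalization the log2 signal was 9.92 ± 0.09 with CpG-ODN and 11.07 ± 0.24 in saline (SD, n = 4 each). ACTA2 thus fell by 1.15 on the log2 scale, to 0.45 of the saline level (95% interval 0.363 to 0.558, limma adjusted p = 0.000344). Only 2.28% of all kept probes had a lower log2 change, and 3.55% were called with at least a 2-fold decrease.

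**Figure D2:**
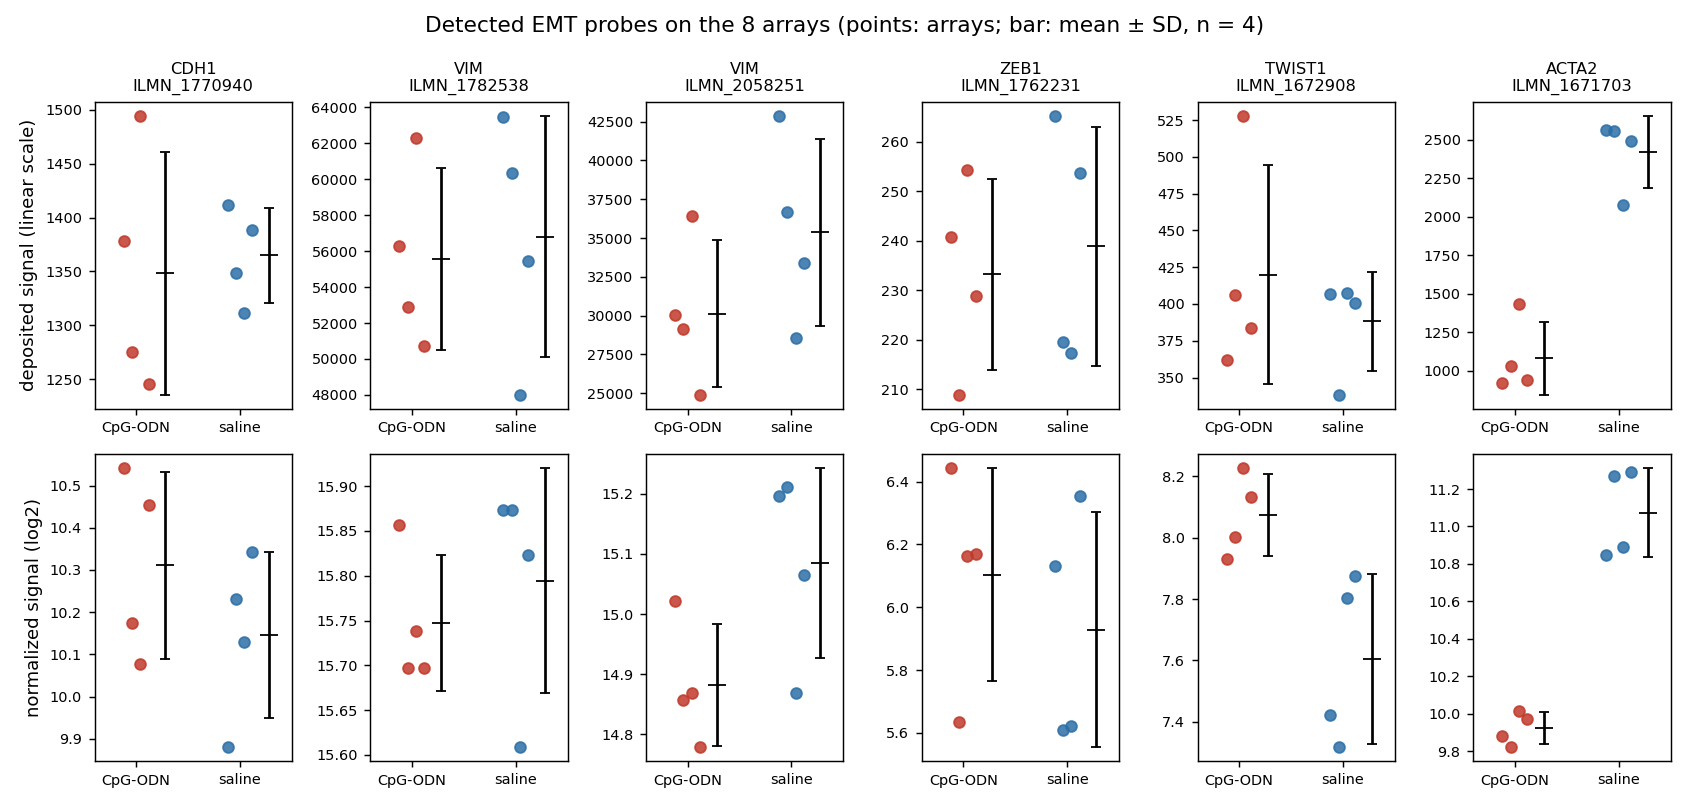
The 6 kept probes on each array, as deposited signal (top row, linear scale) and as normalized log2 signal (bottom row), with CpG-ODN left of saline, points for arrays and bars for mean ± SD (n = 4 each); axes do not start at 0. ACTA2 is separated in both rows, TWIST1 only in the bottom row, where its CpG-ODN arrays begin at 7.93 and its saline arrays end at 7.87.

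The tissue comes from the peritoneal wall, so host and stromal markers stand beside this result. In bulk samples, fewer cells of a type and less RNA per cell cannot be told apart. Of 14 fibroblast and smooth muscle markers 6 passed the filter and 0 were called, with a median log2 change of -0.05. The same fit, limma, gave an unadjusted p under 0.05 for 1 of the 6, TAGLN. This count of 0 depended on the processing: in 7 of 18 alternatives TAGLN was called lower, and without CpG-ODN replicate 1 another gene of the list was called higher as well. The summed level of the 14 markers ran from 1089 to 1643 on CpG-ODN arrays and from 1281 to 1979 on saline arrays, ranges that overlap. As a sum of linear signals it mostly follows TAGLN, at mean log2 9.61 with CpG-ODN and 10.30 in saline. MYH11, CNN1, COL1A2, COL3A1, LUM and THY1 were not detected on any array, whereas PDGFRA, FAP and TAGLN were detected on all. On CpG-ODN and saline arrays respectively, DES was detected on 3 and 4, DCN on 3 and 3 and COL1A1 on 2 and 3. In the same order, POSTN was detected on 2 and 0 and PDGFRB on 0 and 1. The array was designed for human transcripts, and how mouse RNA binds the ACTA2 probe was not tested.

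TAGLN and ACTG2 are contractile genes looked at after their values were seen. TAGLN, an actin-binding protein of smooth muscle, had a log2 change of -0.69 ± 0.25 (SE, limma adjusted p = 0.0634), and its other kept probe stood at -0.40 (adjusted p = 0.345). Over the 18 alternatives its adjusted p ran from 0.0119 to 0.151 and its log2 change from -0.92 to -0.58, below 0 in each. The adjusted p was 0.0119 without CpG-ODN replicate 1 and 0.0298 without saline replicate 4. ACTG2, the enteric smooth muscle actin, stood at 0.44 ± 0.26 (adjusted p = 0.239).

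TWIST1 encodes a basic helix-loop-helix repressor of CDH1. Its signal was 362, 406, 528 and 384 on CpG-ODN replicates 1 to 4, against 407, 338, 407 and 400.4 on saline replicates 1 to 4. The raw signals overlapped, with means of 420.0 ± 74.2 in CpG-ODN and 388 ± 33.4 in saline (SD, n = 4 each, exact permutation two-sided p = 0.6). Normalized log2 signals were 7.93, 8.0, 8.23 and 8.13 on the CpG-ODN arrays, against 7.42, 7.32, 7.80 and 7.87 on the saline arrays. After normalization the groups no longer overlapped, as was the case for 14.0% of all kept probes in this direction, and the log2 change was 0.47 ± 0.15 (SE, 95% interval 0.13 to 0.81, limma adjusted p = 0.0459). The call lay close to the threshold: it held in 8 of 18 alternatives, with adjusted p-values from 0.0305 to 0.435, and was lost on leaving out saline replicate 1 or 2 or any 1 CpG-ODN array, with adjusted p-values from 0.058 to 0.12. The change was 0.26 without background correction, the same in the authors' deposited table.

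**Figure D3:**
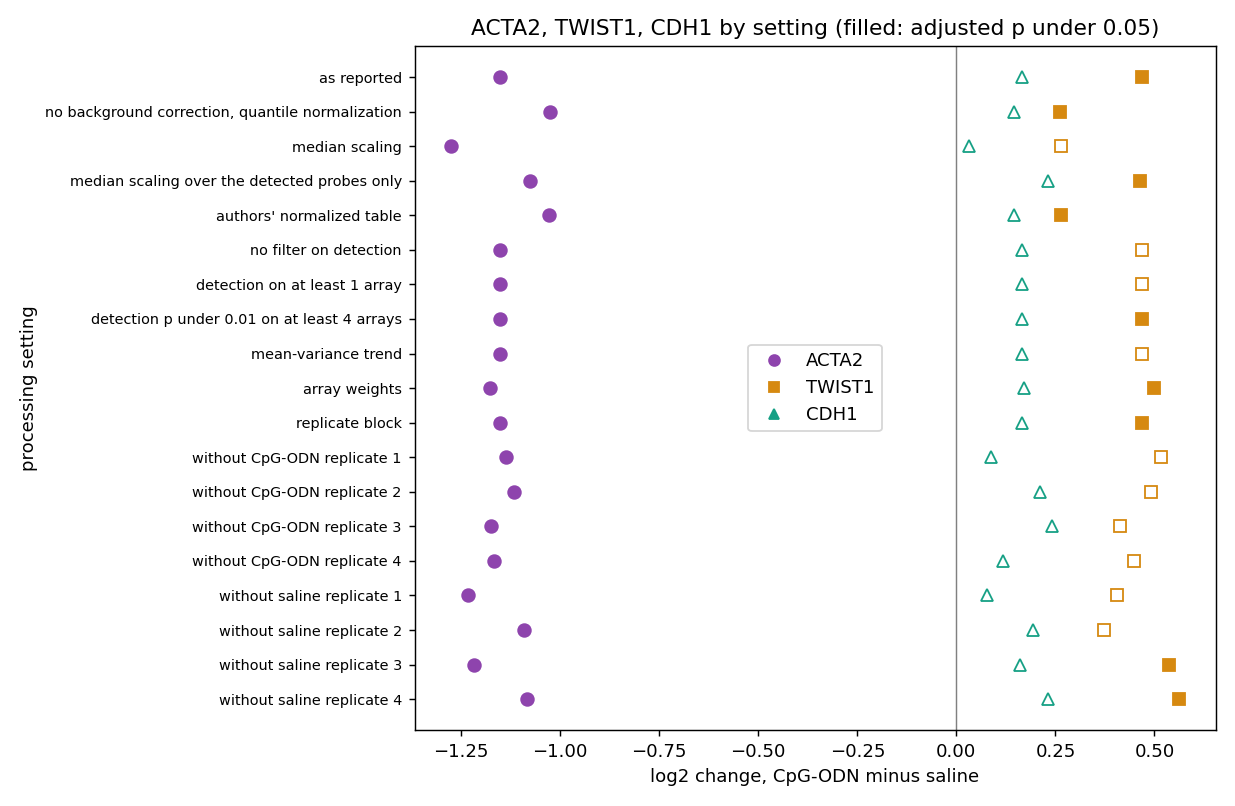
Log2 change (CpG-ODN minus saline) of ACTA2, TWIST1 and CDH1 under the reported setting (top) and 18 alternatives, filled where the adjusted p is under 0.05. ACTA2 is filled in every row, between -1.28 and -1.03, TWIST1 in the top row and 8 others, and CDH1 in none.

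CDH1 encodes the cadherin of epithelial adherens junctions. Its signal was 1378, 1275, 1494 and 1245 on CpG-ODN replicates 1 to 4, against 1411, 1349, 1312 and 1388 on saline replicates 1 to 4. The groups overlapped, and the log2 change was 0.17 ± 0.15 (SE, limma adjusted p = 0.464). The 95% interval ran from 0.889 to 1.41 times the saline level, so an effect of the size seen for ACTA2 lies outside it.

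VIM encodes the intermediate filament protein of mesenchymal cells and had 2 probes. The first, ILMN_1782538, had signals of 56289, 52881, 62310.1 and 50733 on CpG-ODN replicates 1 to 4, against 63444, 60325, 48002 and 55475 on saline replicates 1 to 4. The second, ILMN_2058251, had signals of 30039, 29164, 36409 and 24898 on the CpG-ODN arrays, against 42875, 36666, 28534 and 33411 on the saline arrays. The groups overlapped at both probes.

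Neither VIM probe passed the test. The log2 change was -0.05 ± 0.11 at the first (95% interval 0.811 to 1.15 times the saline level, limma adjusted p = 0.804) and -0.20 ± 0.12 at the second (0.719 to 1.05 times, adjusted p = 0.258), and both were above 0, at 0.22 and 0.02, when arrays were scaled to the median of the detected probes. The highest signal of any probe was 69717 to 71997 per array, so VIM was read near the top of the range. There quantile normalization sets values by rank, and the first probe had 15.87 on saline replicates 1 and 2 alike and 15.70 on CpG-ODN replicates 2 and 4 alike.

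ZEB1, a zinc-finger repressor of CDH1, was close to background. Its signal was 241, 209, 254 and 229 on CpG-ODN replicates 1 to 4, against 265, 219, 217 and 254 on saline replicates 1 to 4, and it was detected on 3 CpG-ODN and 2 saline arrays. The groups overlapped, and the log2 change of 0.17 ± 0.22 did not pass (SE, limma adjusted p = 0.604). Its 95% interval, 0.808 to 1.57 times the saline level, was wider than that of CDH1.

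The Snail family repressors were not detected with CpG-ODN. SNAI1 had a detection p-value of 0.0461 on saline replicate 2 and of 0.219 to 0.791 on the other arrays. For SNAI2, the first probe (ILMN_1655740) was at 0.0461 on saline replicate 2 and between 0.058 and 0.682 elsewhere, and the second between 0.437 and 0.859. On these arrays a change in either gene was not measurable.

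TGFB1 itself, the ligand, had signals from 168 to 216 and detection p-values from 0.105 to 0.776, and was not detected on any array. Other genes of EMT were taken from 7 lists, with 92 of 130 genes kept, each by its brightest kept probe. Of these 92, 8 rose and 6 fell, 15.2% of those tested, against 29.2% of all 11023 genes (12.9% higher and 16.3% lower). The gap depended on the processing. Without background correction 24 of the 92 were called, where the share of all kept probes was 29.5%, against 26.6% as reported. With each array left out, 12 to 15 were called. Probes of 1 gene did not always give the same call: the brightest probes of CALD1 and TPM1 did not pass, at -0.33 and -0.28, while dimmer probes of CALD1 (1.19) and TPM1 (0.65 and 0.79) rose, an instance picked after the values were seen.

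Among TGF-beta ligands, receptors and SMADs, 4 of 19 kept genes rose and 1 fell, with a median log2 change of 0.16. The balance turned to 1 higher and 2 lower, with a median of -0.04, when arrays were scaled to the median of all probes. It was 2 higher and 0 lower with no filter and without CpG-ODN replicate 1, CpG-ODN replicate 2 or saline replicate 4, and 2 higher and 1 lower without saline replicate 1. The co-receptor gene TGFBR3 had signals of 1823 to 3371 with CpG-ODN, against 1273 to 2181 in saline, and a log2 change of 0.80 ± 0.16 (SE, limma adjusted p = 0.0047). The type II receptor gene TGFBR2 had 4 kept probes, and all 4 rose. Its brightest probe changed by 0.52 ± 0.14 (adjusted p = 0.0173), a call held in 16 of 18 alternatives. Raw signals of this probe overlapped, at 2895 to 5207 with CpG-ODN and 2432 to 3131 in saline. The other TGFBR2 probes changed by 0.57, 0.78 and 1.48. The last was detected on 4 CpG-ODN and 2 of 4 saline arrays. It passed the filter mainly through the group where it was higher, and it is no support for the TGFBR2 call. The activin type I receptor gene ACVR1B changed by 0.40 ± 0.12 (adjusted p = 0.0281), a call held in 8 of 18 alternatives. Its raw signals overlapped, at 1828 to 3019 with CpG-ODN and 1650 to 2284 in saline. Its dimmer probe changed by 1.72 (adjusted p = 0.000546) and was detected on 4 CpG-ODN arrays and 1 saline array. That probe passed the filter mainly through the group where it was higher, and it is no support for the ACVR1B call. SKI, a nuclear corepressor of SMADs, changed by -0.49 ± 0.15 (adjusted p = 0.0359), held in 10 of 18, with -0.30 without background correction. Raw SKI signals overlapped, at 334 to 520 with CpG-ODN and 484 to 586 in saline. The remaining call, SMAD1, named after its value was seen, was 0.73 (adjusted p = 0.0491). It was detected on 4 CpG-ODN arrays and 1 saline array, so it passed the filter mainly through the group where it was higher, and its call is no support for the count. SMAD2, SMAD3 and SMAD4, the signal transducers of the pathway, stood at 0.33, -0.16 and -0.18 and did not pass.

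Of 11 kept TGF-beta target genes, 1 rose and 2 fell. CCN2, a matricellular growth factor gene, had signals of 4030.6 to 8338 with CpG-ODN, against 1571 to 3027 in saline. It rose by 1.53 ± 0.16 (SE, limma adjusted p = 0.000154), and its other probe by 1.62 (adjusted p = 0.00054). PMEPA1, a feedback inhibitor of SMAD signaling, had signals of 278 to 363 with CpG-ODN, against 444 to 690 in saline, and changed by -0.91 ± 0.17 (adjusted p = 0.00335), its other probe by -0.77 (adjusted p = 0.014). The first probe changed by -0.52 without background correction. JUNB, an AP-1 subunit gene, changed by -0.97 ± 0.19 (adjusted p = 0.00455). The matrix protein gene TGFBI stood at -0.69 (adjusted p = 0.0657) and the protease inhibitor gene TIMP1 at 0.07 (adjusted p = 0.654), and both were named after their values were seen.

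**Figure D4:**
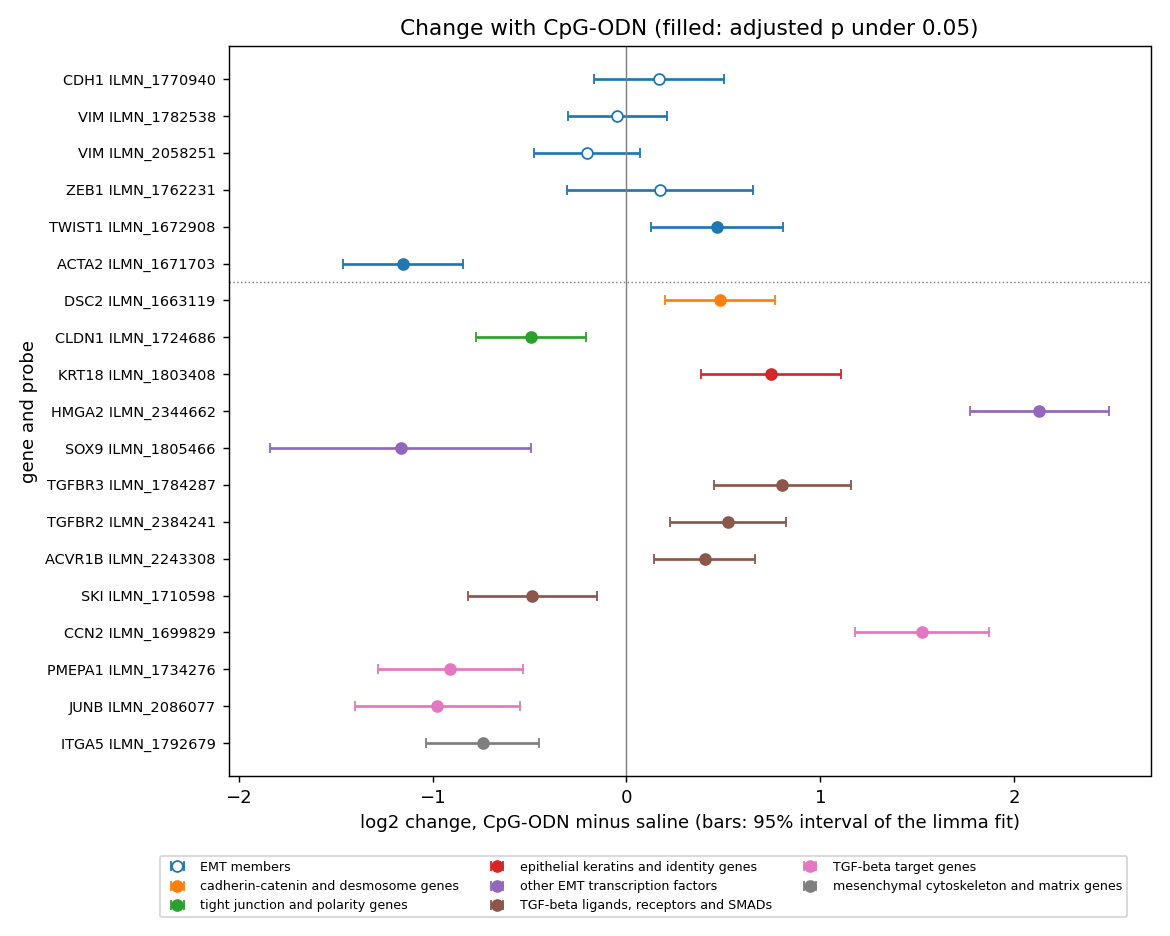
Log2 change (CpG-ODN minus saline) with the 95% interval of the limma fit for the 6 kept probes of the 10 EMT genes (above the dotted line) and for the other named EMT genes, coloured by list and filled where the adjusted p is under 0.05. ACTA2 at -1.15 and TWIST1 at 0.47 are the filled points above the line, and CCN2 at 1.53 and HMGA2 at 2.13 lie farthest right below it.

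Other EMT transcription factors had 1 higher and 1 lower of 12 kept. HMGA2, a chromatin protein that in mouse mammary cells acts upstream of Snail and Twist, rose by 2.13 ± 0.16 (SE, limma adjusted p = 5.49e-05), with signals of 458 to 598 with CpG-ODN, against 252 to 318 in saline. The saline signals were close to background, and the log2 change was 1.08 without background correction and 1.09 in the authors' deposited table. SOX9 had signals of 406 to 1085 with CpG-ODN, against 1234 to 1835 in saline, and changed by -1.16 ± 0.30 (adjusted p = 0.0173). ZEB2 stood at -0.18 (adjusted p = 0.648), and TWIST2, PRRX1 and GSC were not detected on any array.

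Of 12 cadherin-catenin and desmosome genes 1 rose, the desmosomal cadherin gene DSC2, by 0.48 ± 0.13 (SE, limma adjusted p = 0.0187), while its other probe stood at -0.02 (adjusted p = 0.956). The DSC2 change was 0.29 without background correction and 0.28, not past the threshold, with medians of all probes. Its raw signals overlapped, at 426 to 540 with CpG-ODN and 398 to 471 in saline. A dimmer NECTIN2 probe, named after its value was seen, rose by 0.69 (limma adjusted p = 0.00308), while the brightest stood at 0.41 (adjusted p = 0.0789). CTNNA1, CTNNB1 and CTNND1, which encode catenins of the CDH1 junction complex, stood at -0.06, 0.23 and 0.14 and did not pass. Of 9 tight junction and polarity genes 1 fell, the claudin gene CLDN1, at -0.49 ± 0.13 (adjusted p = 0.0174), with 14 of 18 alternatives past the threshold and a change of -0.31 with medians of the detected probes. Of 10 epithelial keratins and identity genes 1 rose, KRT18, at 0.75 ± 0.16 (adjusted p = 0.00782), and its other probe stood at 0.49 (adjusted p = 0.08). Raw signals of KRT18 overlapped, at 599 to 973 with CpG-ODN and 493 to 654 in saline, and so did those of CLDN1. KRT8, the keratin that pairs with KRT18, stood at -0.08 (adjusted p = 0.662). A dimmer MUC1 probe, named after its value was seen, rose by 0.75 (limma adjusted p = 0.00415), while the brightest stood at 0.33 (adjusted p = 0.084). This list's count varied, with 3 higher and 3 lower under a mean-variance trend, 3 higher and 2 lower without background correction and in the authors' deposited table, and 0 of either with medians of all probes.

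Taken each by its brightest kept probe, mesenchymal cytoskeleton and matrix genes had 1 lower and 0 higher of 19 kept, with a median of -0.21. The number lower was 4 without background correction, in the authors' deposited table, with a mean-variance trend and with the stricter detection filter, 3 with medians of all probes and without CpG-ODN replicate 1, and 2 without CpG-ODN replicate 3 or saline replicate 4, while 0 were higher in any of the 18 alternatives. The gene that fell was ITGA5, the integrin subunit that binds fibronectin, with signals of 1094 to 1378 in CpG-ODN against 2084 to 2550.4 in saline and a log2 change of -0.74 ± 0.13 (SE, limma adjusted p = 0.00263). SPARC, COL1A2, COL3A1, FBN1, MMP14 and CNN1 were not detected on any array, and S100A4 stood at 0.10 (adjusted p = 0.553). Dimmer probes, looked at after their values were seen, went both ways. Those of CALD1 (1.19), TPM1 (0.65 and 0.79) and TPM2 (0.86, limma adjusted p = 0.0318) rose. A dimmer ITGB1 probe fell, at -0.46 (limma adjusted p = 0.0357).

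Markers of other cells moved with the treatment in part. Of 6 endothelial markers 3 were kept and 2 rose, VWF by 1.02 (limma adjusted p = 0.00477, and 0.38 on the log2 scale without background correction) and CDH5 by 0.63 (adjusted p = 0.033, held in 7 of 18 alternatives). PECAM1, the remaining kept marker, stood at 0.42 (adjusted p = 0.188). Over all genes 12.9% were called higher. The summed endothelial level ran from 829 to 1148 on CpG-ODN arrays and from 546 to 656 on saline arrays, without overlap. That sum mostly follows CDH5, at mean log2 9.47 with CpG-ODN and 8.84 in saline. TEK and CLDN5 were not detected, and KDR was detected on 0 CpG-ODN arrays and 1 saline array. Of 9 macrophage and white blood cell markers 3 were kept: CD14 stood at 0.76 (adjusted p = 0.0145), CD68 at 0.65 (adjusted p = 0.0158, its other probes at 0.38 and 0.85 not passing) and AIF1 at -1.09 (adjusted p = 0.0277). CD14 was detected on 3 CpG-ODN arrays and 1 saline array, so it passed the filter mainly through the group where it was higher, and its change was 0.26 without background correction. The list's summed level ran from 6959 to 10612 with CpG-ODN and from 5570.4 to 7379 in saline, with PTPRC and CSF1R not detected. This linear sum mostly follows CD68, at mean log2 12.92 with CpG-ODN and 12.28 in saline, against 8.71 and 9.80 for AIF1. ITGAM was detected on 0 CpG-ODN and 2 saline arrays, CD3E and MS4A1 each on 0 and 1, and CD163 on 1 and 0. With detection on at least 1 array as the filter, the list's median log2 change was -0.16, against 0.65 as reported. Of 6 mesothelial markers 4 were kept, with UPK3B at 0.67 (adjusted p = 0.0487, held in 6 of 18 alternatives, and 0.26 without background correction), LRRN4 at -0.40 (adjusted p = 0.0459, held in 8 of 18) and sums of 8510.5 to 9352 with CpG-ODN and 8230.1 to 9739 in saline. The mesothelial sum mostly follows MSLN, at mean log2 12.99 with CpG-ODN and 13.01 in saline. MSLN is also among the markers of the line, so the sum says little about mesothelial cells. The part of these cells in the values of CCN2, TGFBR2 and the other EMT genes was not tested.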

How the data were processed

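Expression in IGROV-1 tumor cells was measured on 8 arrays, 4 per group. The deposited intensity values are average probe signals, marked by the file headers as non-normalized, each with a deposited detection p-value. The submitters' processing notes name BeadStudio, without a version. A second deposited table holds intensity values that rank probes as the first does but share 1 distribution over all arrays; the sources used here do not state its method. It was used as an alternative, on the log2 scale.

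Signals were corrected and quantile normalized with neqc (offset 16, background inferred from detection p-values) in limma 3.58.1 under R 4.3.3. Probes detected (p under 0.05) on at least 4 arrays were kept, 18184 of 48797, of which 14584 had 1 gene symbol, 3 several and 3597 none. Names came from the platform annotation, updated through gene identifiers. Every adjusted p is from lmFit and eBayes on log2 signals with a treatment term, two-sided, Benjamini-Hochberg over all kept probes, threshold 0.05; the fit was tested on simulated data. A summed marker level adds, over a list's genes, the normalized linear signal above the offset. Named genes are all member probes, up to 4 passing genes per list by p (or 2 where none passed) and passing cell markers; genes outside this are said to be. Members, lists and the naming rule were chosen with earlier results of these data known. Genes of the lists without a probe were not analysed here. The number of arrays limits the precision, and p-values measure the spread between arrays, which may be technical. Alternatives covered background, scaling, table, filter, variance model, array weights, the replicate number and each array left out.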

Additional observations from a re-analysis of the deposited data

Results flagged for a closer look

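Among 56 groups of 4 arrays examined (kept EMT probes, named genes, mean raw signal and probes detected), 3 had 1 array far from the other 3, where chance gives about 1 in 20. The gap as a share of the range was 0.947 for AIF1 in the CpG-ODN group, where replicate 1 stood at 8.01 and the others at 8.92 to 8.98 (log2). It was 0.922 for CDH5 in saline, where replicate 3 stood at 8.53 and the others at 8.93 to 8.96, and 0.852 for mean raw signal in saline, where replicate 1 stood at 1079 and the others at 876 to 906. No probe of the 10 EMT genes was among the 3.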

How the results depend on the processing

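ACTA2 kept its direction and call in all 18 alternatives run for it, with log2 changes from -1.28 to -1.03 and adjusted p-values up to 0.00348. CDH1, VIM and ZEB1 passed in none of theirs. The number of EMT probes called, 2 as reported, was 1 with medians of all probes, with no filter on detection, with detection on at least 1 array and with a mean-variance trend, and 1 to 2 on leaving out each array; in each of these the probe lost was TWIST1. The cause was not tested. The listed EMT genes called, 14 as reported, were 24 without background correction, 24 in the authors' deposited table and 26 with the mean-variance trend, and 12 to 15 with each array left out; all probes called ranged from 3871 to 4288 there. Of 465 alternative values for single genes, 394 stayed on their side of the threshold and 71 lost the call, with 0 called values changing sign. Median scaling over the detected probes alone was chosen after seeing the data. Same-numbered arrays did not deviate together (correlations from -0.27 to 0.09, and 0 of 4 CpG-ODN arrays closest to their own number). No pairing by number was seen, but 4 numbers are too few to settle whether the arrays were paired. With the replicate number as a block, 3954 probes, 2 EMT probes and 13 listed genes were called, and of the TGF-beta ligands, receptors and SMADs 2 were higher and 0 lower. Signal close to background limits ZEB1, and the undetected genes have no measured change.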

Other observations

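A few genes of the lists outside the naming rule, picked after their values were seen, differed in how many arrays detected them. Over all probes, every saline array detected more (18784 to 20114) than every CpG-ODN array (18425 to 18570). TGFBR1, the TGF-beta type I receptor gene, was detected on 0 of 4 CpG-ODN and 3 of 4 saline arrays and did not pass the filter. PARD6B and POSTN went the other way, each detected on 2 of 4 CpG-ODN and 0 of 4 saline arrays, and did not pass either. MARVELD2, the tight junction gene for tricellulin, was detected on 1 of 4 CpG-ODN and 4 of 4 saline arrays, at a log2 change of -0.54 ± 0.20 (SE, limma adjusted p = 0.077). MARVELD2's other kept probe stood at -0.56 (adjusted p = 0.0762) and was detected on 2 of 4 CpG-ODN and 4 of 4 saline arrays. Both probes passed the filter mainly through the group where they were higher, so neither is support for a change. VCL, the gene for the junction and focal adhesion protein vinculin, stood at -0.32 (adjusted p = 0.0766) and its other probe at -0.30 (adjusted p = 0.18).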
